A study of Homo sapiens with 3 samples.

Results

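RNA polymerase II (Pol II) regions that were called in vehicle-treated LNCaP cells, but had neither a Pol II region with the CK2 inhibitor TBBz nor a CK2α region close by, numbered 2476 of the 21819 regions of the vehicle list. A region belonged to this set when no region centre of the TBBz list lay within 2000 bp and no centre of the CK2α list within 1000 bp. The set was 11.3% of the vehicle list, and 21.6% of its 11457 regions without CK2α within 1 kb. A further 566 regions without a TBBz partner had CK2α within 1 kb. Absence from the TBBz and CK2α lists therefore chose these regions and is not a finding about them.

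Called ChIP-seq regions were available as 3 lists, 1 library for each group, all from LNCaP, an androgen-responsive human prostate carcinoma line that carries an androgen receptor of its own. All cultures were at passages 40 to 45, were kept for 3 days in serum stripped of hormones and were given 100 nM dihydrotestosterone (DHT). The vehicle culture received DMSO, labelled as 25 μM, for 2.5 hours with DHT for the last 1.5 hours, and the inhibitor culture received 25 μM TBBz over the same times. The CK2α library came from DHT-treated cells without inhibitor; its DHT time is 2.5 hours in the treatment label and 90 min in the protocol. The source label of both Pol II libraries mentions TBBz, and they were told apart by the treatment label. The line was not checked against marker genes, since positions alone were at hand. Because each group is a single library, replicate spread is unknown, and the treatments were compared without any test. Intervals are exact (Clopper-Pearson) 95% binomial intervals and cover counting error only. All region positions are in hg19.

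CK2 is a protein kinase whose catalytic subunit CK2α phosphorylates many nuclear proteins, among them factors that act with Pol II. Pol II gathers at promoters, is also found at active enhancers and often slows again beyond the 3′ ends of genes, while along gene bodies its signal is thin and spread out. TBBz is a brominated benzimidazole that blocks the ATP site of CK2, and it can also act on other kinases.

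Each list carried a score of 1 for every region, but its order held the number of sequenced tags. Late in every list, regions fell into blocks within which chromosome and start position rose, as they do when regions of equal height are sorted by position. Each block was read as 1 tag more than the block after it, with the fourth block from the end set to the tag threshold in the header. That starting point was picked, out of 4 tried, because its sums came closest to the header totals, and the same one was closest in all 3 lists. The heights so recovered summed to 99.8% of the tags in regions that the header gives for the vehicle list, 99.988% for TBBz and 99.0% for CK2α. With the scale moved by 1 tag the vehicle sum was 97.8% or 102% of the header's. Heights near the top of a list are slightly low, because a height that no region has leaves no block.

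The vehicle-only regions, as the set is called here, were low. Vehicle regions that had a TBBz centre within 2 kb are called kept regions. The median height of the vehicle-only regions was 12 tags (quartiles 11 and 14). It was 28 tags (16 and 56) for the 8981 kept regions without CK2α, and 62 tags for the 9796 kept regions with CK2α. The 566 vehicle-only regions with CK2α had a median of 14 tags. Recovered heights went below the header's tag threshold in every list. They reached 8 tags with vehicle, 10 with TBBz and 9 with CK2α, under thresholds of 11, 13 and 12. The reason was not tested. Of the 2476 regions, 302 stood below the threshold of 11 tags, 1718 had 11 to 15 tags, 395 had 16 to 30 and 61 had more than 30. The 2476 made up 45.3% of all vehicle regions with 10 tags and 47.3% of those with 11. The share was 26.3% at 15 tags, 7.62% at 20 and 1.32% at 30. Among the 2078 vehicle regions with more than 100 tags, 4 were vehicle-only without CK2α.

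**Figure D1:**
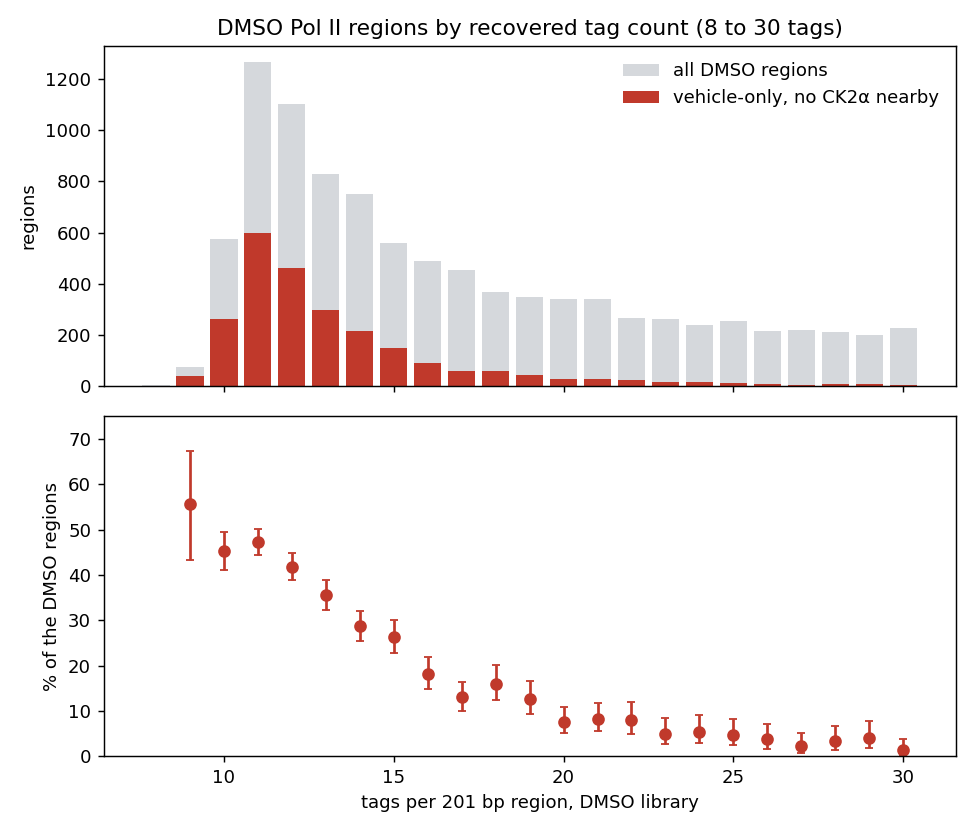
The upper panel counts vehicle Pol II regions (grey) and vehicle-only regions without CK2α nearby (red) at each recovered tag count from 8 to 30, with the red bars drawn over the grey; the lower panel gives the red share in percent with exact 95% intervals, for tag counts with at least 50 regions. The share falls from 47.3% at 11 tags to 1.32% at 30 tags.

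The libraries differed in depth, with 15466579 tags for vehicle and 22345614 for TBBz. By the headers, 1050304 vehicle tags and 2814886 TBBz tags fell in called regions. Scaling by depth does not even out that difference. A site that took the same share of all tags in both libraries would hold 15.9 tags with TBBz for 11 with vehicle, and 17.3 for the median of 12. The TBBz threshold was 13 tags. Scaled to libraries of 10000000 tags (tags per 10M), the header thresholds were 7.11 with vehicle and 5.82 with TBBz. A region also had to stand 4-fold above the surrounding 10 kb. Whether a vehicle-only site fell below the tag threshold or failed the comparison with its surroundings in the TBBz library was not tested.

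At equal height, vehicle regions without CK2α lacked a TBBz partner more often than those with CK2α. Between 11 and 15 tags, 46.7% of 3681 regions without CK2α within 1 kb had no TBBz centre within 2 kb (45.0 to 48.3%), against 37.6% of 829 regions with CK2α (34.3 to 41.03%). The share was higher without CK2α at 5 of these 5 tag counts, from 56.0% against 49.7% at 11 tags to 34.8% against 25.0% at 15 tags. Between 16 and 20 tags the shares were 19.3% (17.3 to 21.4%) and 17.1% (14.1 to 20.5%), with overlapping intervals, and regions without CK2α were higher at 3 of 5 tag counts. The choice of the regions uses this contrast, so the values describe these libraries. Kept regions with CK2α also had other vehicle regions close by more often: in this range 31.9% of them had another vehicle region within 2 kb, against 17.6% of the kept regions without CK2α, and its part in the difference was not tested.

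**Figure D2:**
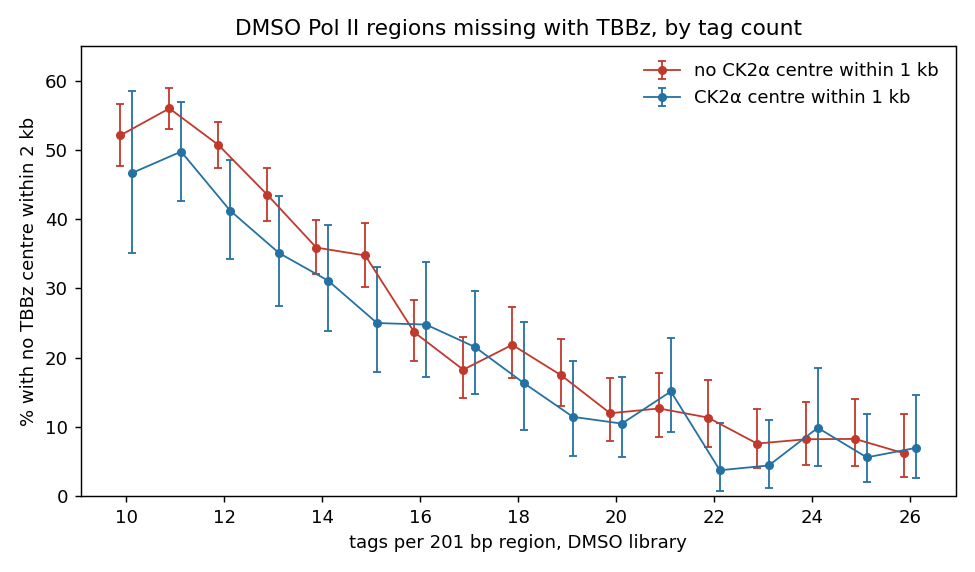
The percentage of vehicle Pol II regions with no TBBz centre within 2 kb is plotted against their tag count from 10 to 26, for regions without CK2α within 1 kb (red) and with it (blue), with exact 95% intervals. Red lies above blue at each count from 11 to 15 tags, and the curves cross above 15 tags.

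The tallest vehicle-only regions stood at loci of different kinds, among them 2 genes known from prostate biology. Gene names here rest on general knowledge of the hg19 gene map and not on an annotation of that build, and no position within a gene is given. The first of them, chr19:51364817-51365017 at KLK3, the gene of prostate-specific antigen and a standard androgen target, had 185 tags. An equal share of the TBBz library would be 267 tags, yet the nearest TBBz region, of 249 tags, lay 6672 bp away and the nearest kept region 25653 bp away. The second, chr3:128211911-128212111 at GATA2, the gene of a transcription factor that works with the androgen receptor in prostate cells, had 131 tags. The vehicle region 4543 bp away, of 60 tags, was kept, and its TBBz partner had 146 tags.

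The promoters of these genes are shown because they belong to the 2 tallest vehicle-only loci. The sequences are the 250 bases before the annotated start from RefSeq (GRCh38.p14), whose coordinates cannot be set beside the hg19 regions; KLK3 is chr19:50854665-50854914 on the plus strand and GATA2 chr3:128493202-128493451 on the minus strand, the first of its 2 entries. Capitals mark AGAACA, an arm of the androgen response element, and the GC box GGGCGG, each searched on both strands.
KLK3: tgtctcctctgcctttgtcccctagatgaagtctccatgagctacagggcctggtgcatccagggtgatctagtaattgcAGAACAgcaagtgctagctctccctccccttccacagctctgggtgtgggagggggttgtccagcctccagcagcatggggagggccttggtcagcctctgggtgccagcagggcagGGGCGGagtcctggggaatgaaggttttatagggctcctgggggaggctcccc
GATA2: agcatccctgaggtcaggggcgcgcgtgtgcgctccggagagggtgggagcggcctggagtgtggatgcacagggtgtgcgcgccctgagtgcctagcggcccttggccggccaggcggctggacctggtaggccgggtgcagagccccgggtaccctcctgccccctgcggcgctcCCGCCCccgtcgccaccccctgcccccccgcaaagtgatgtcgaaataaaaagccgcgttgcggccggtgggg
The KLK3 promoter held AGAACA, as did 12.4% of the 35116 promoters in the table, and TATAAA on the reverse strand, found in 10.7%. The GATA2 promoter held neither. GGGCGG was present in both and in 42.6% of all promoters. The GATA2 promoter was 72.8% G and C with 24 CG pairs, and the KLK3 promoter 60.8% with 1 CG pair. Among the 14 of 17 genes looked up for these regions that had an entry, 1 held AGAACA, 9 held GGGCGG, 3 held CCAAT (32.0% of all promoters), 2 held the forkhead letters TGTTTGC (3.23% of all), and none held TGTTTAC, the AP-1 site TGANTCA or the CRE TGACGTCA, which 2.98%, 6.57% and 1.65% of all promoters hold.

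Other tall regions stood at genes of varied function. At chr3:49756960-49757160, beside AMIGO3 and GMPPB, the latter an enzyme of sugar-nucleotide synthesis, 116 tags were found 4300 bp from a kept region of 85 tags. At chr11:824602-824802, at PNPLA2, the gene of adipose triglyceride lipase, 110 tags stood 5100 bp from a kept region of 145 tags, which had 243 with TBBz. Both lay near a kept region, as did chr9:136335557-136335757 at CACFD1, with 87 tags and a kept region of 86 tags 8543 bp away.

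At chr12:115107367-115107567, at TBX3, a T-box transcription factor of developing organs, 79 tags were found 13158 bp from a kept region of 30 tags, whose TBBz partner had 36. At chr1:173831627-173831827, at GAS5, a noncoding host gene of small nucleolar RNAs, 78 tags were found, and the next vehicle-only region lay 817 bp away with 70 tags; the kept region 5361 bp away had 202 tags with vehicle and 318 with TBBz. GAS5 was the locus, among the first 10 regions, with the closest vehicle neighbour. Also among the first 10 were chr2:133023108-133023308 with 90 tags and chr10:42399377-42399577 with 71 tags, the latter less than 1 Mb from a region-free stretch, meaning 2 Mb or more without a region in the 3 lists.

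The neighbours of these tall sites were then counted. Of the first 10 regions, 9 had a TBBz centre within 10 kb, against 90.0% of all vehicle regions and 99.7% of those with more than 30 tags. These shares are not alike, since the choice left out regions with a TBBz centre within 2 kb. For 7 of the 10 the nearest vehicle neighbour was a kept region, which held for 86.1% of all vehicle regions. A kept region lay between 2594 and 25653 bp from each of the 10. The kept neighbour took a larger share of the TBBz than of the vehicle library in 7 of the 10, as tags per 10M. Over all 18777 kept regions, 18.6% took a smaller share of the TBBz library. Over all 61 vehicle-only regions with more than 30 tags, 65.6% had a TBBz centre within 10 kb (52.3 to 77.3%), against 67.3% of the 55 vehicle-only regions with CK2α and 99.7% of all vehicle regions of that height. Another vehicle region lay within 10 kb of 63.9%, against 70.9% of those 55, 44.8% of the 4194 kept regions without CK2α and 39.5% of all vehicle regions of that height. None of the 61 was without another vehicle region within 100 kb, which allows up to 5.87%, the exact upper limit. The same held for those 55 regions with CK2α. Of the kept regions without CK2α 8.08% were without one, and of all vehicle regions of that height 9.57%.

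The set as a whole stood farther from Pol II with TBBz than its tallest regions did. Over all 2476 regions, the median distance to the nearest TBBz centre was 18857 bp (quartiles 9596 and 43069 bp). A TBBz centre lay within 5 kb of 6.79%, within 10 kb of 26.4% (24.6 to 28.2%) and within 50 kb of 78.4%, and 227 regions (9.17%) had none within 100 kb. For vehicle-only regions with CK2α the shares were 10.2%, 35.2% and 88.2%, and 3.36% had none within 100 kb. For all vehicle regions they were 87.1%, 90.0%, 97.2% and 1.13%. The contrast with all vehicle regions follows in part from the choice, which left out regions with a TBBz centre within 2 kb. Heights were not matched in these comparisons. The regions farthest from any TBBz region were chr11:80493763-80493963 at 1828574 bp with 11 tags, chr18:63418026-63418226 at 1765800 bp with 10 tags, chr16:6655661-6655861 at 1507062 bp with 10 tags, chr1:187729403-187729603 at 1384461 bp with 12 tags and chr2:13643668-13643868 at 1129104 bp with 10 tags. All 5 were thus within 1 tag of the threshold of 11, and 3 of them lay beside a region-free stretch.

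CK2α regions were found beyond the 1 kb that the choice demanded. The nearest CK2α centre lay at a median of 33298 bp, within 10 kb of 18.1% and within 50 kb of 62.1%. For kept regions without CK2α, over all heights, the shares were 17.9% and 58.6%, so those within 10 kb were nearly alike. Among regions of 11 to 15 tags, 17.4% of the vehicle-only regions had CK2α within 10 kb (15.6 to 19.3%), against 12.6% of the kept regions without CK2α (11.2 to 14.2%). No CK2α centre within 100 kb was found for 21.8% and 29.5%, respectively. In this height range the vehicle-only regions therefore stood somewhat closer to CK2α than those kept regions that had none within 1 kb.

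Vehicle-only regions had another vehicle-only region close by more often than kept regions without CK2α of the same height did. This follows in part from the choice. A vehicle region close to a kept one can have the same TBBz centre within 2 kb, and is then not vehicle-only. Between 11 and 15 tags, 12.2% of them had another vehicle-only region within 10 kb (10.7 to 13.9%), against 3.31% of the kept regions without CK2α (2.56 to 4.2%), and within 100 kb the shares were 39.5% and 29.4%. Other vehicle regions of any kind lay within 10 kb of 30.8% and 34.0%, with overlapping intervals. The nearest other vehicle region was itself a kept region for 75.1% of all vehicle-only regions, against 86.1% of all vehicle regions. It was taller for 79.6% of the vehicle-only regions. Between 11 and 15 tags it was taller for 79.5% of them and for 77.2% of all vehicle regions. A total of 159 regions (6.42%) had no region of any list within 100 kb, and these same 159 were 0.73% of all vehicle regions. By the choice, every other vehicle region has a TBBz centre within 2 kb or a CK2α centre within 1 kb and could not be among them.

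Most stood alone. When vehicle-only regions less than 50 kb apart were joined, 1764 of them (71.2%) remained single, 498 formed 249 pairs, and 58 (2.34%) stood in 10 runs of 5 or more. The runs lay at few loci. Run members were of even height: each of the 10 runs had a median between 12 and 14.5 tags, and no region in them exceeded 19 tags.

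A long row of vehicle-only regions without a kept one lay on chromosome 14, between FOXA1, the gene of the pioneer factor that opens chromatin for the androgen receptor in prostate cells, and SSTR1, a somatostatin receptor gene. From chr14:38191305 to 38597395, a span of 406 kb, the vehicle list held 15 regions, and all 15 were vehicle-only. Their heights ran from 10 to 18 tags with a median of 14. Of these, 6 made up the run chr14:38191305-38304495 and 5 the run chr14:38380195-38431671. The TBBz list held 3 regions in the span, each of 13 tags, the threshold height, and CK2α held 2. The ends of the span were set by vehicle-only regions, so few TBBz regions inside it follow in part from the choice. On the FOXA1 side TBBz regions were called, 8 of them from chr14:37996783 to 38119879 with 15 to 35 tags.

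On chromosome 21 the 3 runs at NCAM2, a neural cell adhesion molecule gene, held 22 of the 24 vehicle-only regions in a span of 544 kb, chr21:22392807-22936426, whose vehicle regions numbered 29. The 24 had 11 to 18 tags. The TBBz list held 19 regions of 15 to 50 tags in this span, some of them on the 5 kept vehicle regions. The kept region 22140 bp before the first vehicle-only region had 158 tags with vehicle and 306 with TBBz.

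**Figure D3:**
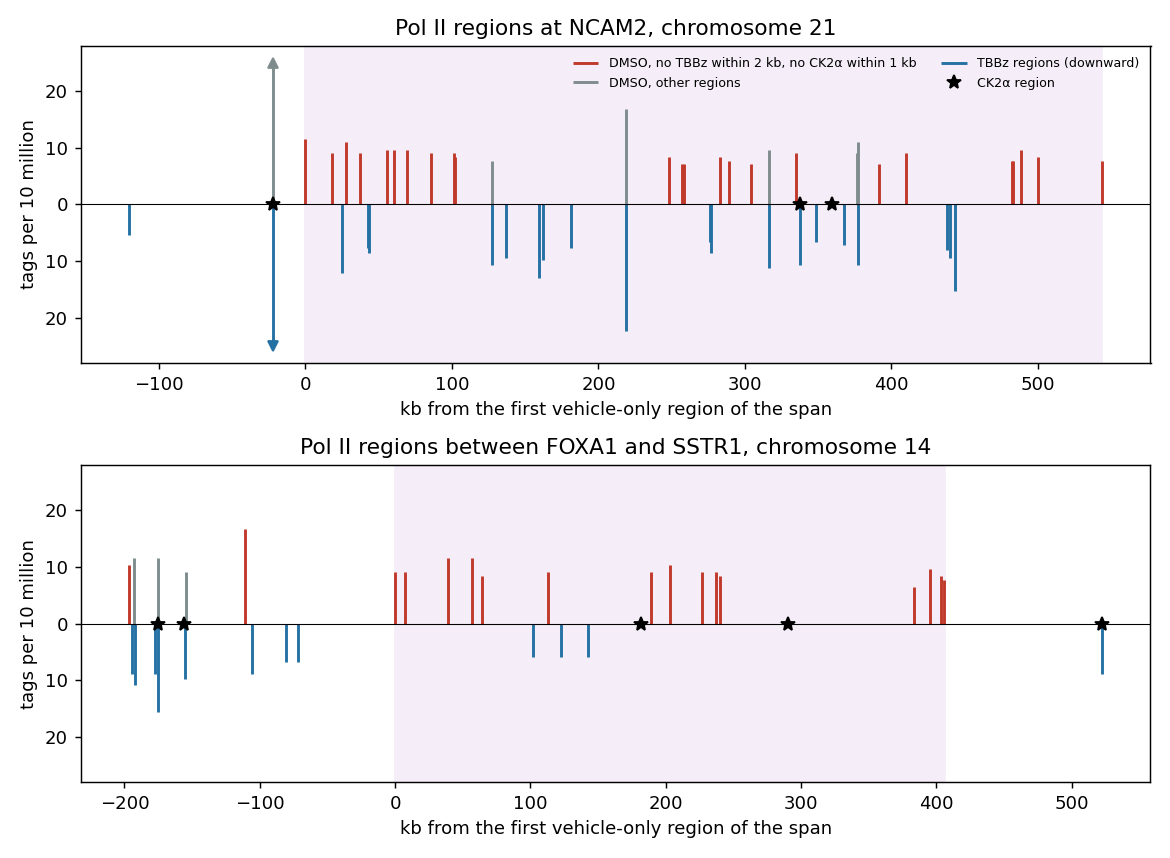
Each vertical line is a Pol II region, at its distance in kb from the first vehicle-only region of the span (x axis), with its height in tags per 10M (y axis): vehicle regions upward, in red where vehicle-only without CK2α and grey otherwise, TBBz regions downward in blue, stars for CK2α regions; arrowheads mark lines cut at 25 and shading marks the span. The shaded span on chromosome 14 holds 15 red lines and 3 blue ones, and the one on chromosome 21 holds 24 red and 19 blue lines.

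The shortest of the 10 runs, over 21.4 kb, was at IGF1R, the gene of the receptor for insulin-like growth factors. In chr15:99331407-99352760, 5 vehicle-only regions of 11 to 14 tags stood 1.598 to 8.962 kb apart, with no TBBz and no CK2α region between them, and the nearest TBBz region was 42885 bp from the last of them. At GULP1, an adaptor of engulfment, 2 runs of 5 were found: chr2:189276040-189339118 with 12 to 18 tags and no TBBz region inside, and chr2:189412131-189496074 with 12 to 19 tags and 2 TBBz regions inside. At ANK3, the gene of ankyrin-G, which links membrane proteins to the cytoskeleton, chr10:62358737-62451198 held 5 vehicle-only regions of 11 to 16 tags and 3 TBBz regions. The run chr8:27376976-27491506, around EPHX2 (soluble epoxide hydrolase) and CLU (clusterin, a secreted chaperone), held 5 of 13 to 15 tags and 2 TBBz regions. None of the 10 runs held a CK2α region. Run members were chosen without TBBz within 2 kb or CK2α within 1 kb, so few such regions inside the runs follow in part from the choice. The runs after the fifth were added to the account after their values were seen.

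Chromosomes differed in how many of their vehicle regions were vehicle-only. The share was highest on chromosome 21, at 19.6% (15.5 to 24.3%), and lowest on chromosomes Y, X and 13, at 6.67%, 8.01% and 8.22%. Since low regions were more often vehicle-only, a number for each chromosome was computed from the heights of its own vehicle regions and the genome-wide share at each height. Chromosome 21 carried 66 against 48.5 so computed, a ratio of 1.36. Without the NCAM2 span it was 42 against 39.3, a ratio of 1.07, and the share was 13.7%. Chromosomes 13 and X carried 31 and 46, against 48.4 and 64.7. Chromosome 19 carried 138 against 122, and chromosome 1 carried 306 against 273. For the other chromosomes except Y, with 5 regions against 11.2, the ratio lay between 0.870 and 1.08.

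**Figure D4:**
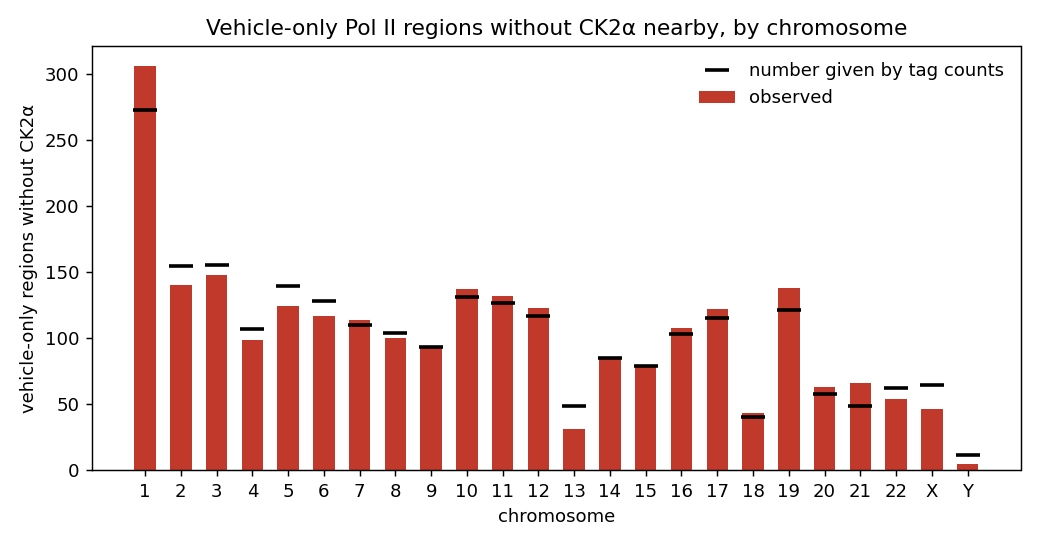
Bars give the number of vehicle-only regions without CK2α nearby on each chromosome (x axis), and black marks the number computed from the heights of that chromosome's vehicle regions. Chromosome 21 stands above its mark with 66 against 48.5, and chromosomes 13 and X stand below theirs.

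Kept regions beside vehicle-only ones were measured as well. Their heights are not free of the choice, since each had to have a called TBBz region within 2 kb. Sites too low to be called with TBBz are thus left out of both groups compared here. For 2148 of the 2476 regions (86.8%) a kept region lay within 100 kb, which gave 1855 distinct kept regions. Their median log2 ratio of TBBz to vehicle, in tags per 10M, was 0.80 (quartiles 0.19 and 1.16), against 0.78 (0.19 and 1.17) for the 16922 other kept regions. In the median, kept regions were thus taller with TBBz in these units whether or not a vehicle-only region was near. The units scale by all tags of a library. Called regions held 1050304 of 15466579 tags with vehicle and 2814886 of 22345614 with TBBz. The part of this library-wide difference in the ratios was not tested. For kept regions below 30 tags the medians were 0.05 (−0.29 and 0.74) beside vehicle-only regions and 0.25 (−0.23 and 0.90) elsewhere, and 46.4% and 37.4% of these regions had a ratio below 0. The difference was not tested. From 30 to 79 tags they were 1.13 and 1.06, and from 80 tags 0.78 and 0.75.

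**Figure D5:**
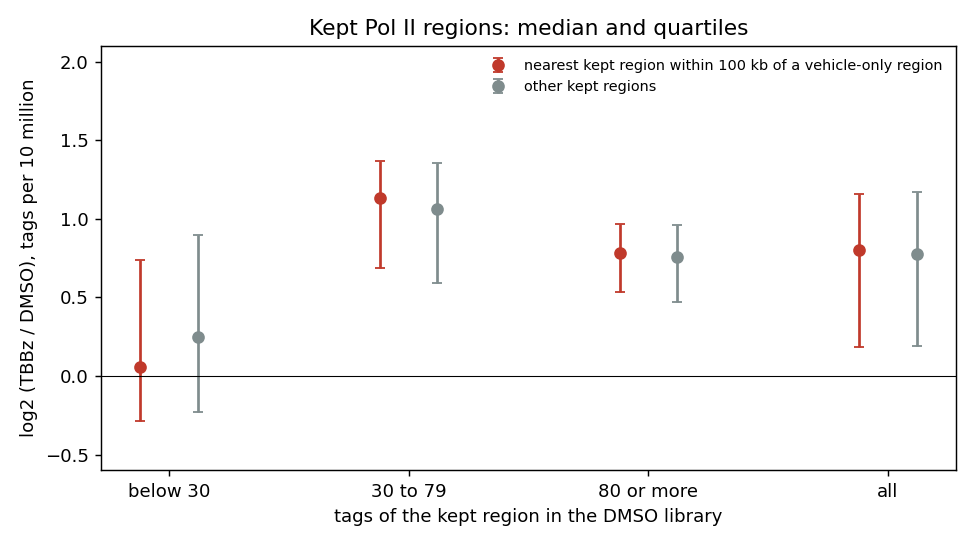
The y axis is the log2 ratio of TBBz to vehicle height, in tags per 10M, of kept regions grouped by their vehicle tag count (x axis); points are medians and bars the quartiles, red for the nearest kept region within 100 kb of a vehicle-only region and grey for the other kept regions. Red and grey medians lie within 0.20 of each other in each group, and both are lowest below 30 tags.

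The surroundings beyond 2 kb were counted for regions of 11 to 15 tags. Between 2 and 50 kb from a vehicle-only region of 11 to 15 tags there were on average 2.103 other vehicle regions and 2.26 TBBz regions, against 1.68 and 1.99 around kept regions without CK2α, 2.09 and 2.40 around kept regions with CK2α, and 2.48 and 2.72 around vehicle-only regions with CK2α. Between 2 and 5 kb the order against kept regions without CK2α was the other way, with 0.0541 vehicle and 0.0664 TBBz regions against 0.0611 and 0.0739. Between 2 and 50 kb the ratio of TBBz to vehicle regions was 1.07 around vehicle-only regions without CK2α and 1.18 around kept regions without CK2α, and that of their summed tags per 10M was 1.85 and 1.84. The limits of the choice cut through continuous distances. The 5 regions just inside the TBBz limit had a TBBz centre at 2023 to 2056 bp, among them chr14:37994760-37994960 with 16 tags, and the 5 just outside it lay at 1974 to 2000 bp, among them chr15:64445844-64446044 with 44 tags. For CK2α the distances were 1004 to 1055 bp just inside the limit and 979 to 997 bp just outside it.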

How the data were processed

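The study measured CK2α and Pol II by ChIP-seq in LNCaP cells, with 1 library per group. Per the submitters' processing notes, Bowtie and HOMER were used with hg19; no version of either tool was stated in the material used. Regions were called by the authors per library, per the file headers, with HOMER in factor style (size 200, spacing 500, fragment 150 bp, false discovery rate 0.001, 4-fold over 10 kb, no control named), a setting for point-like sites. The deposited score is 1 for every region. Groups came from the antibody and treatment labels. Members and lists were chosen with earlier results of these data known. Tag heights were recovered from list order as described above, with regions tied in height sorted by position. This step was tried on simulated lists sorted by that same rule, with their lowest height given. Such lists cannot test the sort order or the starting point assumed for the lists used here. Depth was 19021404 tags for CK2α, 15466579 for vehicle and 22345614 for TBBz.

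The rule for named regions took the first 10 by list order, the 5 farthest from TBBz, the 5 runs with the most members and the 5 on either side of each limit. Among the first 10, 1 is not reported here by itself. No hg19 annotation was used here, so the planned shares at promoters and in gene bodies, the sequence content of regions and the counts over gene lists (androgen-induced, prostate luminal, immediate-early, elongation, CK2 subunit and neuronal genes) were not computed. Gene names were given from general knowledge and not matched to an hg19 annotation, and SSTR1 was added after looking at the GRCh38.p14 gene table; all 17 were on the same chromosome in the RefSeq table of GRCh38.p14, and 6 of 6 pairs sharing a chromosome stood in the same order. Tools were SciPy 1.17.1, pandas 2.3.3, NumPy 2.4.6, Matplotlib 3.10.9 and Python 3.11.15.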

Additional observations from a re-analysis of the deposited data

How the results depend on the processing

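Of 57 values recomputed under another setting, 42 stayed within their counting interval, their quartiles or 1.5 times the count. Only the differences between groups could change sign, and none of them did. TBBz distances of 1 and 5 kb gave 30.8% and 21.01% of regions with TBBz within 10 kb, which follows from the rule. With the TBBz list shortened to the vehicle number this was 22.1%, and 45.2% had another vehicle-only region within 100 kb. With an overlap of 1 bp in place of distances there were 4782 regions, 50.2% of them in the last 20% of the list, 56.1% with another within 100 kb and 58.9% with TBBz within 10 kb. The first 50% of the list held 35, with a median of 46 tags, 5.71% within 100 kb of another and 74.3% within 10 kb of TBBz. The difference in missing regions without against with CK2α at 11 to 15 tags was 9.04 points, and 6.25 to 11.4 points elsewhere; the 6.25 points came without regions beside region-free stretches. That setting, the tag heights and the settings for chromosome 21, flanks and 11 to 15 tags were chosen after seeing the data. The deficit of other vehicle regions within 10 kb was −8.35 points over the list, −4.16 in its last 20% and −3.19 at 11 to 15 tags; the cause was not tested. Alternatives that need an annotation or genome of hg19 were not run. Regions near or below the threshold rest on 15 tags or fewer, and how their calls move with depth was not measured. No paired analysis was possible because no group holds more than 1 library.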
